A study of Mus musculus with 8 samples.

Results

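The genes described are 8 early-response genes, Egr1, Egr2, Klf2, Klf4, Klf6, Ier2, Ier3 and Ier5, taken by symbol from the deposited cell table and by Ensembl identifier from the library tables, which hold 17580 gene identifiers. All 8 were found in both. They were measured in subcutaneous tumours of 4T1 cells, a mouse mammary carcinoma line, grown in Balb/c mice for 10 days. Pieces were digested with a bacterial protease for 1 h in 4 ways, at 37C with inhibitor, at 37C without inhibitor, at 4C with inhibitor and at 4C without inhibitor. The inhibitor was actinomycin D, a transcription inhibitor, at 2 nM. How far this dose stopped transcription was not measured. Warm and cold digestions used different dissociator models, of which the warm one was heated, so model and temperature cannot be told apart. Every group shared the protease, the pooling of 6 pieces from different mice, red cell lysis and the removal of debris and dead cells. Each group was 1 suspension, divided into the aliquots A and B, which gave 8 libraries on the ddSEQ droplet system. P-values therefore measure only the spread between aliquots, which is technical.

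Early-response genes are transcribed within minutes of a stimulus, without new protein synthesis, from genes whose polymerase and regulators are already in place, and their transcripts are short-lived. Mitogen and stress kinases acting on serum response factor and its partners drive the EGR genes, which encode zinc finger transcription factors. The KLF genes encode zinc finger factors that bind GC-rich DNA. The IER genes encode small proteins of growth and stress responses that are not all of one family. Handling of tissue is a known stimulus for such genes, which makes them a common readout of dissociation.

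Cell types were taken from the deposited annotation of 654 cells, which names 325 tumour cells, 154 T cells, 109 macrophages and 66 NK cells. The 37C libraries each held 99 to 115 annotated cells with 158314 to 199929 UMIs (unique transcript tags) in all, the 4C libraries 34 to 74 cells with 23212 to 65149 UMIs. Thus 1 UMI was worth 5 to 6.32 CPM (UMIs scaled to 1000000 over the annotated cells) at 37C and 15.3 to 43.1 CPM at 4C. Markers of each type were highest under its own label. T cell markers took 0.876% of UMIs in T cells, and macrophage markers took 2.45% in macrophages. Of 8 epithelial markers, Epcam and Cldn7 had 0 UMIs in tumour cells. Mast cell and basophil markers took 0.321% of UMIs under the macrophage label, and T cell markers 0.379% under the NK label. Annotated cells of different libraries shared 1 barcode sequence.

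The 8 genes are protein-coding, and no other annotated gene overlaps any of them. In GRCm38 coordinates, Klf2 (ENSMUSG00000055148.7) lies on chromosome 8 at 72319033 to 72321656, Klf4 (ENSMUSG00000003032.8) on chromosome 4 at 55527143 to 55532466 and Klf6 (ENSMUSG00000000078.6) on chromosome 13 at 5861482 to 5870394, with Klf4 on the minus strand and the others on the plus strand. Ier2 (ENSMUSG00000053560.4) lies on chromosome 8 at 84661331 to 84662852 and Ier5 (ENSMUSG00000056708.5) on chromosome 1 at 155096361 to 155099636, both on the minus strand. Ier3 (ENSMUSG00000003541.6) lies on chromosome 17 at 35821684 to 35822923 on the plus strand.

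RefSeq (GRCm38.p6) gave promoter windows for 6 of the 8. Those of Klf2, Klf4, Ier3 and Ier5 are shown because these 4 genes passed a test described further on. They lie at chr8:72318812-72319032 (plus strand), chr4:55532476-55532725 (minus), chr17:35821463-35821683 (plus) and chr1:155099637-155099886 (minus), end before the annotated transcript, and read 5′ to 3′ along the gene. Capitals mark matches, on either strand, to the EGR site GCGNGGGCG or the GC box GGGCGG.
Klf2: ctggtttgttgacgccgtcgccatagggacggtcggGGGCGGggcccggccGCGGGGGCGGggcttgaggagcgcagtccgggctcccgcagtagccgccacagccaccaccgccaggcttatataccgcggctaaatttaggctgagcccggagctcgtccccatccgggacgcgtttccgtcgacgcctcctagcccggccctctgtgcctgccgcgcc
Klf4: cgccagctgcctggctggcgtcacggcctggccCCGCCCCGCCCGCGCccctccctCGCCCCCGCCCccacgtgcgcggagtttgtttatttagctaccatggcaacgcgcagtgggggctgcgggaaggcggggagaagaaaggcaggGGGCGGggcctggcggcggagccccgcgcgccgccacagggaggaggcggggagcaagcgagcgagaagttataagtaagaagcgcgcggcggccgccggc
Ier3: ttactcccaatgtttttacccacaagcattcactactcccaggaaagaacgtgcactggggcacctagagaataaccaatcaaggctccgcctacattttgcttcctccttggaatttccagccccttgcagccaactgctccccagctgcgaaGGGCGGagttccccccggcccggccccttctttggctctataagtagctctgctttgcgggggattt
Ier5: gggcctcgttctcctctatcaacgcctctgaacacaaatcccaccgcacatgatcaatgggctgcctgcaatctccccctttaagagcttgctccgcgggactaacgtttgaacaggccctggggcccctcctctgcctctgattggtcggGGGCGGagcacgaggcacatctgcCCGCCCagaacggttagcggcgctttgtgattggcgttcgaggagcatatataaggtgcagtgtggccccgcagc
The EGR site occurred once in the Klf2 window and in 2 places in the Klf4 window, and in 4.7% of all 32851 RefSeq windows of 250 bases before a start. GC boxes, some of which share letters with the EGR site, occurred in all 4 windows and in 32.7% of all windows. A CArG box, the motif that serum response factor binds, was in none of these 4 windows, but in 4 of 5 start-site windows of Egr2, against 1.47% of all windows. TGACGTCA, TGANTCA, GAANNTTC, TTCNNGAA and TATAAA, searched on both strands, had no match in the 4 windows shown. These matches describe letters only.

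Egr1 (ENSMUSG00000038418.7; GRCm38 chromosome 18, 34859823 to 34864984, plus strand) encodes a zinc finger transcription factor induced by growth factors and stress. Across annotated cells it had 20.8 and 73.3 CPM at 37C with inhibitor and 147 and 111 CPM at 37C without inhibitor (aliquots A and B in this order here and below, scaled by TMM, which corrects for library composition). It had 80.5 and 22 CPM at 4C with inhibitor, from 3 UMIs, and 18.6 and 0 CPM at 4C without inhibitor, from 1 UMI. Both 37C libraries without inhibitor lay above all 6 others. Tumour cells held 52 of the 63 UMIs of Egr1. They also held most annotated UMIs of any gene, 582389, against 121314 in T cells, 148494 in macrophages and 51771 in NK cells. T cells held 9 UMIs of Egr1, of which 8 came from 4 cells of aliquot A at 37C without inhibitor. Macrophages and NK cells held 1 each. Scaled to the UMIs of each type, Egr1 had 89.3 CPM in tumour cells, 74.2 in T cells, 6.73 in macrophages and 19.3 in NK cells.

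Egr2 (ENSMUSG00000037868.15; chromosome 10, 67535475 to 67542188, plus strand), a relative of Egr1 known in myelin formation and in lymphocyte and macrophage control, was nearly undetected, with 12 UMIs in 11 cells. Of these, 9 UMIs came from the 37C libraries without inhibitor (32 and 24.7 CPM), 2 from 37C with inhibitor, 0 from 4C with inhibitor and 1 from 4C without inhibitor. Macrophages at 37C without inhibitor held 6 of the 12 UMIs, in 5 of 35 cells, a share of 14.3% (exact 95% interval 4.81% to 30.3%). At 37C with inhibitor 0 of 57 macrophages held a UMI, which allows a share of cells with a UMI of up to 5.26% (3 counts of 57 cells; the exact 95% upper bound was 6.27%). Intervals and such limits cover counting error only, and limit cells with a UMI, not cells that express the gene. Barcodes under 100 UMIs, outside the annotation, held 17 UMIs of Egr2 at 37C with inhibitor (68.6 CPM) and 12 without it (62.5 CPM). Egr2 was thus not lower with inhibitor there. It did not pass the filter on low counts and was not tested.

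Klf2 keeps naive T cells quiescent and recirculating, and is best known in endothelium for its response to flow. It had 177 and 209 CPM at 37C with inhibitor, 620.5 and 600.1 CPM at 37C without inhibitor, 201 and 286 CPM at 4C with inhibitor and 223 and 281 CPM at 4C without inhibitor. The 37C group without inhibitor stood apart, and the 3 other groups overlapped in part. Tumour cells, which held most annotated UMIs, held 262 of the 316 UMIs of Klf2. Scaled to the UMIs of each type, Klf2 had 449.9 CPM in tumour cells, 214 in T cells, 141 in macrophages and 135 in NK cells. At 4C T cells had more than tumour cells, 409 against 225 CPM without inhibitor and 326 against 208 CPM with it. Those T cell values came from 10 and 5 UMIs.

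Klf4, a factor of epithelial differentiation and of stem cell reprogramming, had 52 and 26.2 CPM at 37C with inhibitor and 141 and 148 CPM at 37C without inhibitor. At 4C it had 0 and 44.1 CPM with inhibitor and 55.8 and 31.3 CPM without it, from 2 and 5 UMIs. Its 37C values without inhibitor were above all 6 others. None of 154 T cells held a UMI of Klf4, which allows a share of cells with a UMI of up to 1.95% (exact upper bound 2.37%).

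Klf6, a widely expressed factor studied as a growth suppressor, had 130.0 and 73.3 CPM at 37C with inhibitor, against 205 and 241 CPM at 37C without inhibitor. At 4C it had 241 and 110.2 CPM with inhibitor and 112 and 15.6 CPM without it. One 4C library with inhibitor was as high as the higher 37C library without inhibitor, at 6 UMIs.

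Ier2, a nuclear protein of early growth responses, had 67.6 and 126 CPM at 37C with inhibitor and 166 and 192 CPM at 37C without it. It had 161 and 88.1 CPM at 4C with inhibitor and 93 and 125 CPM at 4C without inhibitor. The 37C libraries without inhibitor were again the highest, by a smaller margin over the 4C library at 161 CPM.

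Ier3, a stress and NF-kB target that affects cell survival, had 72.8 and 194 CPM at 37C with inhibitor and 365 and 316 CPM at 37C without it. At 4C the values were 282 and 110.2 CPM with inhibitor and 149 and 93.8 CPM without it. The aliquots with inhibitor lay far apart at both temperatures, and the 37C libraries without inhibitor lay above all others. None of 66 NK cells held a UMI of Ier3, which allows a share of cells with a UMI of up to 4.55% (exact upper bound 5.44%).

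Ier5, which is induced by radiation and heat and promotes heat shock factor activity, had 52 and 99.5 CPM at 37C with inhibitor and 339 and 402 CPM at 37C without it. It had 80.5 and 88.1 CPM at 4C with inhibitor and 112 and 62.5 CPM at 4C without inhibitor. The 37C libraries without inhibitor were far above every other library, and the other 3 groups overlapped.

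**Figure D1:**
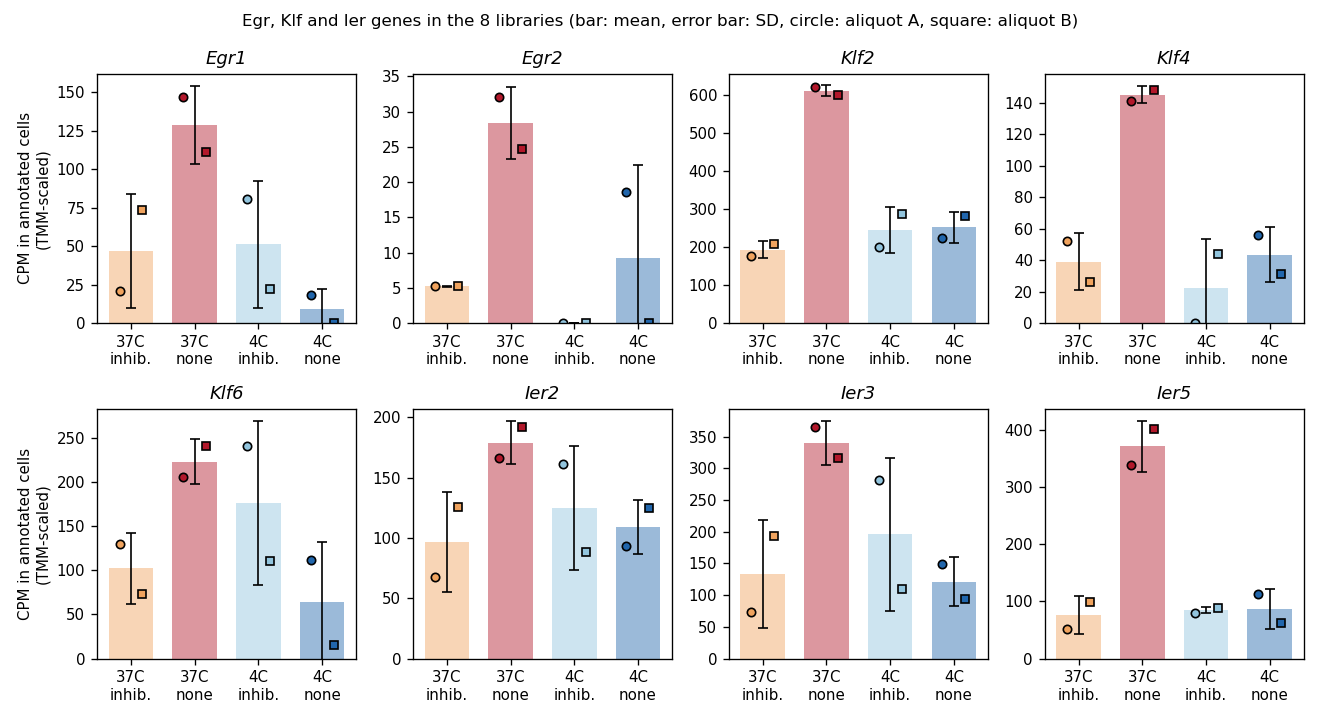
CPM of each gene in the annotated cells of the 8 libraries (y axis, linear, a scale of its own per gene), by group (x axis). Bars are means, error bars SD of 2 aliquots, and points the aliquots. The bar of 37C without inhibitor is the highest for every gene, from 28.4 CPM for Egr2 to 610.3 CPM for Klf2.

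The comparison of inhibitor with no inhibitor at 37C asks which transcripts differed when the drug was present during warm digestion. Whether they depended on transcription was not tested. With inhibitor, Fos still had 198 and 372 CPM at 37C, against 80.5 and 66.1 CPM at 4C. Jun had 265 and 257 CPM at 37C, against 0 and 88.1 CPM at 4C, also with inhibitor. Klf2 fell to 193 ± 23.1 CPM with inhibitor, against 610.3 ± 14.4 CPM without it (SD, n = 2 each), a log2 change of -1.65 ± 0.31 (SE, adjusted p = 0.00475). Ier5 fell to 75.7 ± 33.6 CPM with inhibitor, against 371 ± 44.6 CPM without it, a log2 change of -2.28 ± 0.35 (adjusted p = 0.00133). These are edgeR quasi-likelihood tests with Benjamini-Hochberg adjustment over 3391 genes, called at an adjusted p under 0.05. DESeq2 called Klf2 but not Ier5. Over all listed barcodes 6 of the 7 were called lower, all but Ier2, where 2.59% of 7515 genes were. Of the 8 genes, 7 passed the filter, 2 were called lower and 0 higher, where 1.15% of all tested genes were called lower. Klf4 (-1.86 ± 0.52) and Ier3 (-1.34 ± 0.38) had an adjusted p of 0.0923 each. Egr1 had -1.44 ± 0.58 (adjusted p = 0.401), Klf6 -1.12 ± 0.41 (adjusted p = 0.281) and Ier2 -0.88 ± 0.39 (adjusted p = 0.489). Without adjustment 7 had p under 0.05 and were lower, as did 5.28% of all tested genes. For each of the 7, both libraries with inhibitor lay below both without it, as for 18.3% of all tested genes. A gene passes the filter through the group where it is high, so these counts over the filtered genes are a description. Without either 4C library without inhibitor, Klf4 and Ier3 were called lower too, which made 4.

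Cell types moved between these groups as well. Macrophage markers took 0.871% and 0.473% of UMIs at 37C with inhibitor and 0.393% and 0.211% without it. T cell markers took 0.0885% and 0.0567% with inhibitor and 0.207% and 0.141% without it, and tumour cell markers 0.255% and 0.367% with inhibitor and 0.251% and 0.303% without it. With the 4 types weighted equally in limma, Klf2 had -0.77 and Ier5 -1.45 on the log2 scale, and 0 of the 7 genes were called. That fit gives a full share to types with few cells, such as 2 NK cells in aliquot B at 37C with inhibitor. The part of cell types in the changes was not tested. In sums over mixed cells, fewer cells of a type and less RNA per cell cannot be told apart. Within tumour cells alone 3 genes fell. Klf2 had 220.3 and 247 CPM of tumour cell UMIs with inhibitor and 961 and 797 CPM without it (log2 change -1.92 ± 0.30, edgeR adjusted p = 8.2e-05). Klf4 had 25.4 and 33.3 CPM with inhibitor and 206 and 212 CPM without it (-2.77 ± 0.63, adjusted p = 0.00874). Ier5 had 5 and 15 UMIs with inhibitor, 74.6 CPM over both libraries, and 25 and 36 UMIs without it, 304 CPM over both (-2.04 ± 0.46, adjusted p = 0.00821). These were 3 of the 6 genes tested in tumour cells, where 0.74% of 1756 tested genes were. Ier3 had -1.22 ± 0.36 (adjusted p = 0.117), and Egr1 and Ier2 had adjusted p of 0.636 and 0.678. The call of Klf2 held without any 1 library. Without aliquot A at 37C with inhibitor, or without either aliquot at 37C without inhibitor, Klf2 was the single gene called, as it was with DESeq2. Klf4 was not tested in the refits without a 37C library, since it did not pass their filter, and Ier5, which was tested, had adjusted p of 0.773, 0.11 and 0.542 in the 3 refits that called Klf2 alone.

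The comparison of 37C with 4C without inhibitor asks what differs after warm digestion. It shares the 37C libraries without inhibitor with the comparison above, so high values there enter both. Ier5 rose to 371 ± 44.6 CPM at 37C, against 87 ± 34.7 CPM at 4C (SD, n = 2 each; log2 change 2.11 ± 0.45, edgeR adjusted p = 0.017). It was the 1 call among 7 tested genes, where 1.09% of all tested genes were called higher. Klf2 had 610.3 ± 14.4 CPM at 37C and 252 ± 41.1 CPM at 4C, a log2 difference of 1.26 ± 0.34 (adjusted p = 0.0825). Egr1 had 41 UMIs at 37C and 1 at 4C, a ratio of pooled CPM of 15 with an exact counting interval of 2.54 to 605, and its adjusted p was 0.126. Klf6 had 1.88 ± 0.59, Klf4 1.74 ± 0.69, Ier3 1.50 ± 0.49 and Ier2 0.70 ± 0.48, with adjusted p of 0.179 to 0.675. Without adjustment 6 of the 7 had p under 0.05 and were higher, as did 6.25% of all tested genes. In each of the 7, both 37C libraries lay above both 4C libraries, as in 21.1% of all tested genes. Over all listed barcodes 6 of the 7 were called higher, all but Ier2, where 2.73% of 7515 genes were, and with no filter on low counts 5 of 8 were, where 0.544% of 14517 genes were. The call of Ier5 was lost without aliquot B at 37C or without aliquot B at 4C, and the count was then 0, as it was with DESeq2. The count was 2 without either aliquot at 37C with inhibitor, where Klf2 was added, and without aliquot A at 4C without inhibitor, where Klf6 was. Cell types differed between these groups too. Macrophage markers took 0.393% and 0.211% of UMIs at 37C without inhibitor, against 0.169% and 0.0737% at 4C, and NK cell markers 0.158% and 0.106% at 37C, against 0.307% and 0.264% at 4C. T cell markers took 0.207% and 0.141% at 37C, against 0.165% and 0.232% at 4C. With the 4 types weighted equally in limma, Ier5 had 1.50 on the log2 scale (adjusted p = 0.0512), Egr1 0.75, Klf2 0.16 and Ier2 -0.20, and 0 of the 7 genes were called. Types with few cells count fully there too, such as 3 macrophages in aliquot B at 4C without inhibitor.

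In tumour cells, Klf2 rose to 961 and 797 CPM at 37C without inhibitor, against 166 and 264 CPM at 4C (log2 change 1.95 ± 0.39, edgeR adjusted p = 0.00225). Ier3 rose to 355 and 389.5 CPM at 37C, against 99.8 and 88.2 CPM at 4C (1.98 ± 0.55, adjusted p = 0.0402). These were 2 of 6 tested genes, where 1.42% of the genes tested in tumour cells were called higher. Ier5 had 286 and 319 CPM at 37C and 133 and 44.1 CPM at 4C (1.89 ± 0.62, adjusted p = 0.122). Without aliquot A at 4C 0 of the genes were called, and without aliquot B at either temperature, or with DESeq2, Klf2 alone was.

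**Figure D2:**
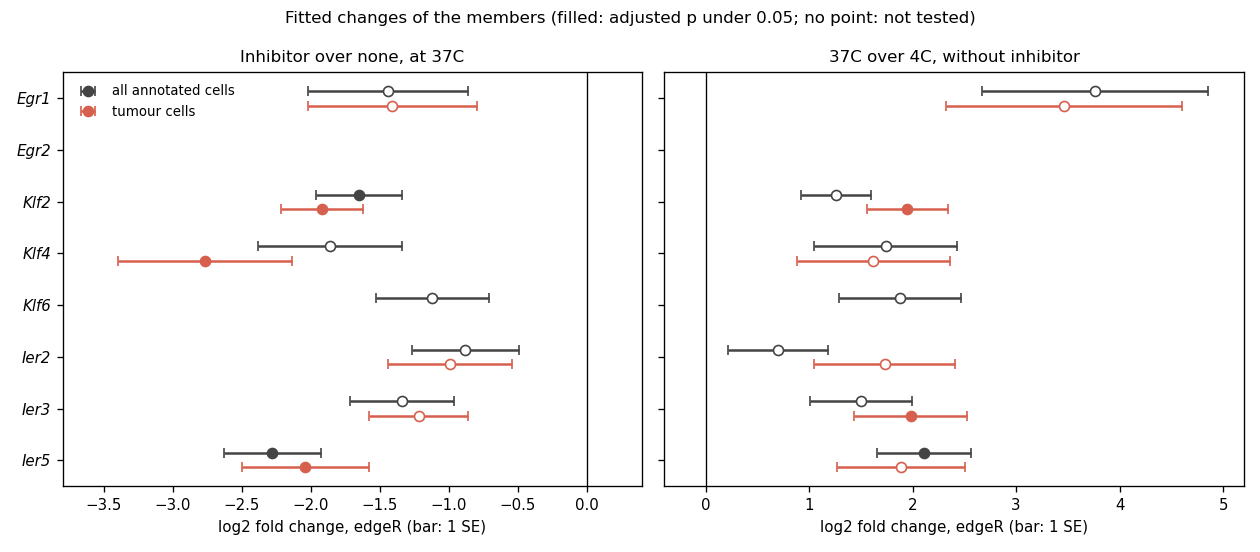
Fitted log2 fold changes with 1 SE (x axis) for each gene (y axis), inhibitor over none at 37C on the left and 37C over 4C without inhibitor on the right. Grey is all annotated cells, red tumour cells, and filled points have an adjusted p under 0.05. Points lie below 0 on the left, down to -2.77 for Klf4 in tumour cells, and above 0 on the right.

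The other comparisons gave no call for these genes in the same test. With inhibitor, 37C against 4C gave log2 differences of -0.64 (Klf6) to 0.46 (Klf4), all with adjusted p of 0.696 or more, and 0 genes had p under 0.05 without adjustment. In that comparison 1.95% of all tested genes were called and 13.7% had an unadjusted p under 0.05. The groups overlapped for all 7 genes, while they did not for 45.1% of all tested genes. At 4C, inhibitor against none called 0 of 3391 genes (0% of all), with 5.04% of them and 0 of the 7 genes under an unadjusted 0.05. Egr1 alone of the 7 had groups that did not overlap at 4C, as had 33.9% of all tested genes. Averaged over the inhibitor, 37C against 4C called 0 of the 7 genes but 3.92% of all. There 2 of the 7, Egr1 and Ier5, had an unadjusted p under 0.05, with 16.5% of all. The interaction, the inhibitor's change at 37C minus its change at 4C, was -2.28 ± 0.87 for Ier5 and -1.65 ± 0.55 for Klf2 on the log2 scale. It called 0 of the 7 and 0% of all tested genes, with adjusted p of 0.416 or more, while 5 of the 7 and 7.37% of all had an unadjusted p under 0.05. The 4C libraries held 18 Klf2 and 6 Ier5 UMIs with inhibitor and 30 and 10 without it. With all listed barcodes summed in place of annotated cells, which holds more UMIs, edgeR called Klf2 (-2.20), Klf6 (-2.17) and Ier3 (-1.69) lower in the interaction, where 1.02% of 7515 genes were. In those sums it also called Klf2 lower at 37C against 4C with inhibitor (-1.21 ± 0.26, adjusted p = 0.00176), where 5.76% of genes were, and Egr1, Klf4, Ier3 and Ier5 higher averaged over the inhibitor, where 9.14% were.

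Cell types differed in which genes they held. In tumour cells at 37C with inhibitor 42 of 131 cells had a UMI of Klf2, or 32.1% (exact interval 24.2% to 40.8%), against 56 of 108 without inhibitor, or 51.9% (42% to 61.6%). At 4C it was 5 of 29 with inhibitor and 11 of 57 without. The median tumour cell held 1557 and 1548 UMIs in the 37C groups with and without inhibitor, and 1002 and 1107 at 4C. Thinned to 200 UMIs per cell, which no annotated cell fell short of, the shares were 5.46% and 14.2% at 37C and 4.32% and 6.12% at 4C in the same order.

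In T cells Ier5 had UMIs in 2 of 21 cells at 37C with inhibitor, 9.52% (exact interval 1.17% to 30.4%), against 18 of 51 without inhibitor, 35.3% (22.4% to 49.9%). At 4C it was 2 of 36 with inhibitor and 3 of 46 without. Scaled to T cell UMIs that was 77.5 CPM at 37C with inhibitor, 610.0 CPM at 37C without it, 131 CPM at 4C with inhibitor and 123 CPM at 4C without it. Median T cells held 918, 752, 328 and 384 UMIs in these groups. In macrophages Ier5 had UMIs in 4 of 57 cells at 37C with inhibitor and 13 of 35 without it, and the median cell held 1600 UMIs with inhibitor and 1038 without it. Their Ier3 UMIs numbered 6 in 57 cells with inhibitor and 25 in 35 cells without it at 37C, of which 21 came from aliquot A. Klf6 had its higher levels in T cells (338 ± 104 CPM) and macrophages (259.7 ± 158 CPM), with 97.7 ± 57.6 CPM in tumour cells, over the 4 libraries at 37C (SD). All 4 T cell values, 211 to 454 CPM, lay above all 4 tumour cell values, 50.8 to 177 CPM. Thinned shares of cells with Klf6 at 37C averaged 7.14% in T cells and 1.83% in tumour cells. In edgeR tests within T cells 0 of the 8 genes passed the filter among 230 genes, of which 0.435% were called in each of the comparisons of inhibitor with none at 37C and of 37C with 4C without inhibitor. With no filter 7 were tested for the inhibitor at 37C and 0 were called, where 0.102% of 9802 genes were, while Egr1 and Ier5 had an unadjusted p under 0.05. For 37C against 4C without inhibitor 0 of the 7 were called, where 0.153% of genes were, and the same 2 had an unadjusted p under 0.05. With at least 20 counts in all, Klf2, Klf6 and Ier5 were tested and 0 were called in either comparison, where 1.92% and 1.22% of 1147 genes were.

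**Figure D3:**
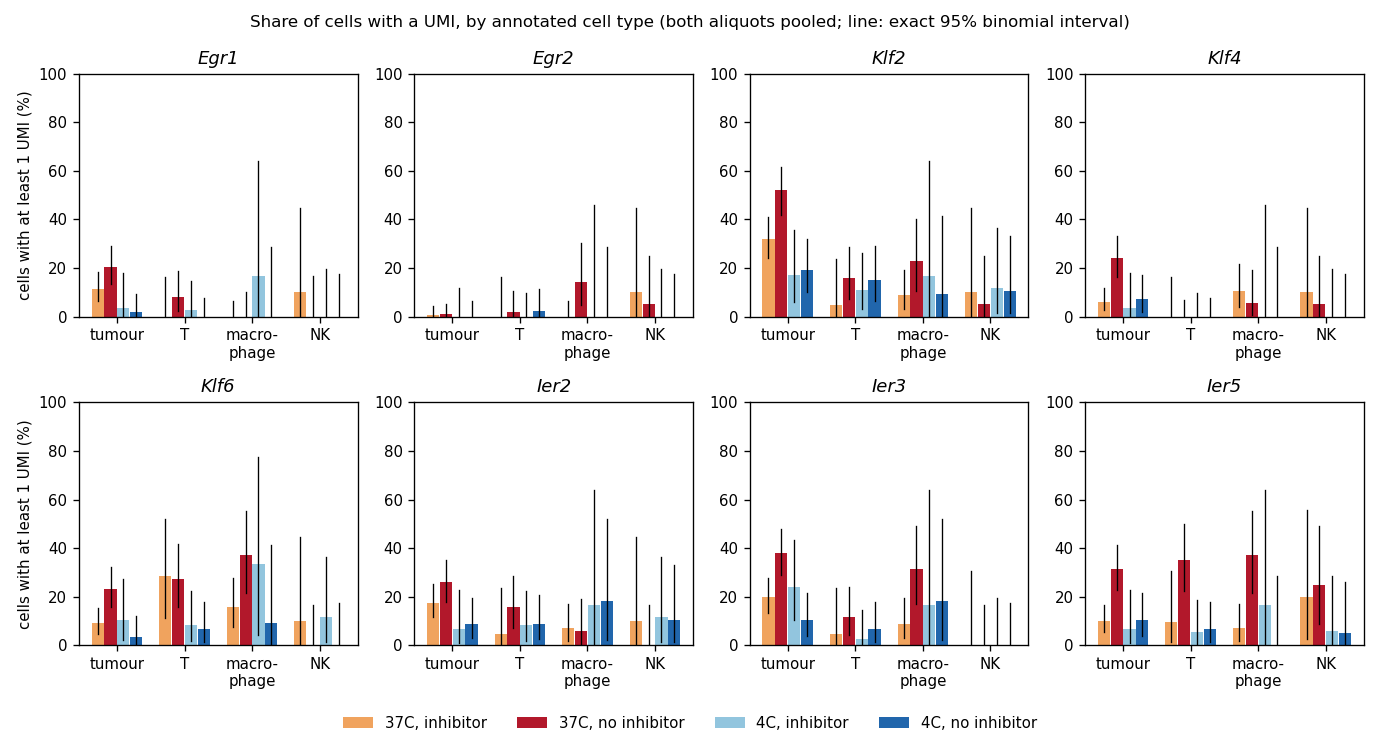
Share of cells with at least 1 UMI of each gene (y axis, percent) in the 4 annotated cell types (x axis), by group, both aliquots pooled, with exact 95% binomial intervals as lines. Klf2 in tumour cells at 37C without inhibitor has the highest bar, 51.9%, and Klf4 has no bar in T cells. Cells at 4C were shallower, so bars at 4C and 37C are not at equal depth.

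Klf2 values under the T cell label came from few UMIs. T cells had 159 and 165 CPM of Klf2 at 37C without inhibitor, against 432 and 388 CPM at 4C, from 9 and 10 UMIs. With inhibitor they had 123 and 0 CPM at 37C, against 354 and 310.3 CPM at 4C, from 2 and 5 UMIs. Over both libraries the T cells had 161 CPM at 37C and 409 CPM at 4C without inhibitor, and 77.5 CPM at 37C and 326 CPM at 4C with it. Barcodes under 100 UMIs, which can hold free RNA, had 568 CPM of Klf2 at 37C and 375 CPM at 4C without inhibitor, and 165 CPM at 37C and 669 CPM at 4C with it. The T cell values are thus below these levels or near them, and T cell expression of Klf2 cannot be told apart from free RNA here. The same limit holds for other values below or near such barcodes. At 37C without inhibitor these had 521 CPM of Ier5, 547 of Ier3, 334 of Klf6 and 245 of Egr1. Tumour cells had 304, 374, 145 and 165 CPM of these genes, all lower. Their Klf2 (869 CPM), Klf4 (209.6) and Ier2 (225) lay above such barcodes (568, 115 and 83.4). T cells had 610.0 CPM of Ier5 and 413 of Klf6, above but near. At 4C without inhibitor tumour cells had 225 CPM of Klf2, below 375. The 37C against 4C change of Klf2 without inhibitor was tested directly between the types, with the library as a block. Its change in tumour cells minus that in T cells was 3.25 ± 0.98 on the log2 scale. The edgeR adjusted p was 0.184 over 802 genes, so the difference did not pass. That test, chosen after the values were seen, called 0.125% of those genes. For Ier5 the same difference was -0.53 ± 1.47 (adjusted p = 1). With T cells, macrophages and NK cells summed, also chosen after the values were seen, Klf2 fell, with a log2 change of -1.43 ± 0.45, at 37C against 4C averaged over the inhibitor (edgeR adjusted p = 0.048, 883 genes, of which 6.68% were called lower). There Klf2 was -0.97 ± 0.59 without inhibitor (adjusted p = 0.467), 0 of 3 tested genes were called higher where 2.83% of all were, and Ier5 fell by 2.66 on the log2 scale with inhibitor at 37C against none (adjusted p = 0.0282, with 2.15% of genes called lower). Macrophages were 92 of the 194 immune cells at 37C and 17 of 135 at 4C, and the part of that shift in these values was not tested.

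**Figure D4:**
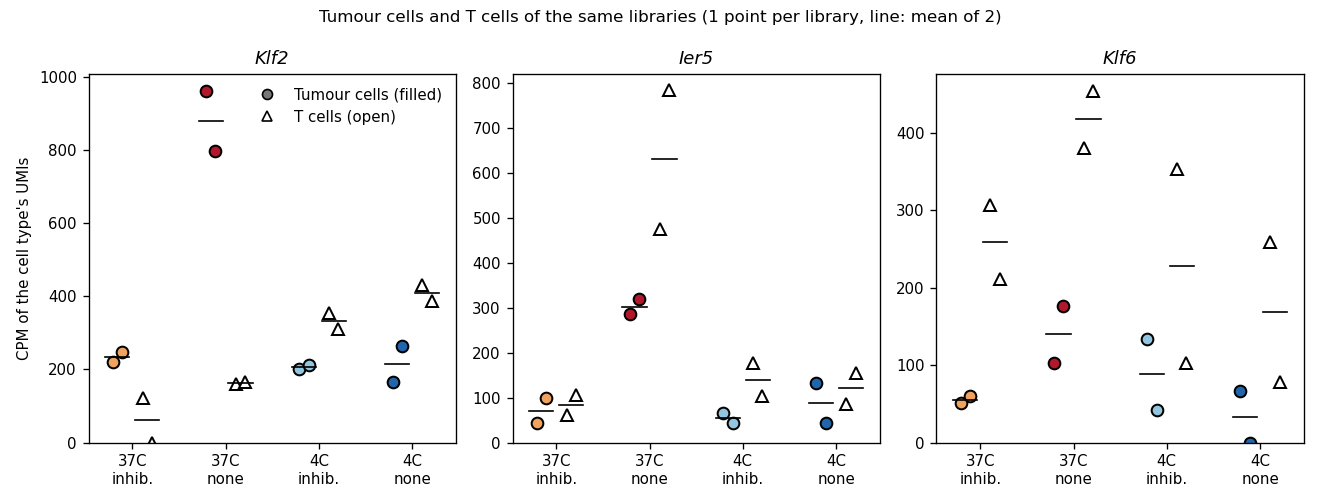
CPM within a cell type (y axis, scaled to the UMIs of that type, linear) for Klf2, Ier5 and Klf6 by group (x axis). Filled circles are tumour cells and open triangles T cells, 1 point per library, lines are means of 2. Klf2 is above in tumour cells at 37C without inhibitor (961 and 797 CPM) and above in T cells at 4C, while Ier5 is highest at 37C without inhibitor in both types.

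Some cells held UMIs of several of the genes. At 37C with inhibitor 11.2% and 12.5% of cells had UMIs of at least 3 of the 8 genes, against 27.3% and 20.9% at 37C without inhibitor. At 4C it was 2.94% and 5.56% with inhibitor and 3.39% and 2.7% without it. The 8 genes took 0.0555% and 0.0787% of UMIs at 37C with inhibitor and 0.199% and 0.2% without it, 0.112% and 0.0767% at 4C with inhibitor and 0.0797% and 0.0599% at 4C without it. Of the 17 cells with 5 or more genes, 14 came from 37C without inhibitor and 16 were tumour cells. Cells with more genes were also deeper, with a median of 791 UMIs in cells with 0 genes and 2195 in those with 3. At 200 UMIs per cell the mean number of genes was 0.133 and 0.16 at 37C with inhibitor and 0.362 and 0.366 without it. The values at 4C were 0.269 and 0.148 with inhibitor and 0.193 and 0.159 without it.

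Other early-response genes moved in the same comparisons. Of 44 listed, 30 were tested, and with inhibitor at 37C 14 fell and 0 rose, where 1.15% of all tested genes fell, with a median log2 change of -1.60 against 0.01 over all tested genes. Those that fell were Fosb, Tnfaip3, Btg2, Nfkbia, Nr4a1, Atf3, Dusp2, Nr4a3, Fosl2, Trib1, Dusp5, Nfkbiz, Junb and Socs3. Nfkbia, the NF-kB inhibitor, had -1.88 ± 0.32 (edgeR adjusted p = 0.00245), and Nr4a3, an orphan nuclear receptor, -3.56 ± 0.62 (adjusted p = 0.00373). At 37C against 4C without inhibitor 10 of the 30 rose, where 1.09% of all tested genes did. These were Fos, Fosb, Jun, Jund, Atf3, Nr4a1, Nr4a2, Nr4a3, Nfkbia and Socs3, with a list median of 1.63 against 0.00 over all. The list was drawn up with earlier results of these data known. Of 9 listed upstream kinases and factors, 7 were tested and 0 were called in either comparison.

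Relatives of the 8 genes were also listed. Of 20 listed family members and partners, 7 were tested and 0 were called in these 2 comparisons. Of all tested genes 1.15% were called lower with inhibitor at 37C and 1.09% higher at 37C against 4C without it. At such shares 0 of 7 does not set the relatives apart from other genes. Their median log2 changes were -0.31 with inhibitor at 37C and 0.15 at 37C against 4C without it. Klf5, an epithelial factor, had -1.25 ± 0.46 with inhibitor at 37C (edgeR adjusted p = 0.302). Klf3 had -0.77, Klf7 -0.54, Klf13 -0.29, Nab1, a corepressor that binds EGR proteins, -0.31, Ier5l -0.16 and Ier3ip1 -0.01. Klf13 fell at 37C against 4C averaged over the inhibitor (-0.99 ± 0.27, edgeR adjusted p = 0.0342), where 3.92% of all tested genes were called in either direction. Of the genes that KLF2 is known to drive in T cells, Ccr7, a homing receptor, fell with inhibitor at 37C (edgeR adjusted p = 0.000373), to 1 UMI against 72 without it, a ratio of pooled CPM of 0.0113 with an exact counting interval of 0.000283 to 0.0652. It rose at 37C against 4C without inhibitor (adjusted p = 0.0174), to 72 UMIs against 2, a ratio of 13.1 with an interval of 3.51 to 111. Both of these tests were over all annotated cells. In T cells Ccr7 had 0 UMIs in 21 cells at 37C with inhibitor and 68 at 37C without it, in 7 of 51 cells. At 4C it had 0 with inhibitor and 2 without it. Within T cells edgeR did not call Ccr7, with adjusted p of 0.0625 for the inhibitor at 37C and 0.107 for 37C against 4C without inhibitor. The interleukin 7 receptor gene Il7r had -1.70 ± 0.52 with inhibitor at 37C (adjusted p = 0.132). S1pr1, the receptor for exit from lymph nodes, was not tested, with 3 T cell UMIs at 37C with inhibitor and 3 without it, 4 at 4C with inhibitor and 2 at 4C without it.

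The genes most like each called gene over the 8 libraries were found by the root mean square difference of centred log2 CPM among 3390 others. For Klf2 they included Nupr1 (0.31) and Anapc16 (0.32), where the median over all was 0.79. Klf4 was closest to Skil (0.31), Ccn1 (0.37) and Dnajb1 (0.38), with a median of 1.04. In aliquot A at 4C with inhibitor, Skil, Ccn1 and Dnajb1 had the same log2 CPM, 4.17, the value of Ccn1 at 0 CPM. Klf4 also had 0 UMIs in that library, so shared zeros enter its likeness. Ier3 was closest to Trib1 (0.35), Emc8 (0.38) and Slc38a2 (0.39), with a median of 0.89. Ier5 was closest to Klf2 (0.41), Trib1 (0.45) and Socs3 (0.47), with a median of 1.02. These libraries share suspensions and depth, so the values describe likeness only.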

How the data were processed

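RNA was measured in single cells by 3′ droplet sequencing of 8 libraries, 2 per group. The authors deposited 1 table of raw UMI counts per gene and barcode for each library, and 1 table of natural log normalised values with a cell type for each of 654 cells, per the file headers. The submitters' processing notes name the build GRCm38 and the tools Seurat, SAMtools, featureCounts 1.6.0, STAR 2.7.1a and UMI-tools, without settings. How doublets were treated was not stated. The deposited natural log table gave only the cells, their types and the gene symbols.

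Counts were summed over annotated cells per library and tested with edgeR 4.0.16 in R 4.3.3 (quasi-likelihood, TMM, filterByExpr, 4 groups, no covariate, Benjamini-Hochberg over all genes tested), and again within tumour cells and within T cells. No library had under 10 cells of these types. DESeq2 1.42.0, limma 3.58.1, other filters, all listed barcodes, thinned libraries and leaving out each library were alternatives. Shares of cells were also taken after thinning each cell to 200 UMIs. Intervals are exact 95% binomial, and the limit for a count of 0 is 3 counts. CPM values by library are TMM-scaled, those by cell type are plain. Simulated counts had the same dispersion for every gene, a set value not estimated from these data, and changes only at 37C without inhibitor. In them 80.2% of genes changed 4-fold and 94.7% of those changed 8-fold were called with inhibitor against none at 37C over 3467 genes. The changed genes there were drawn from those that passed the filter, and the shares are over those still tested. For the difference between tumour cells and T cells, 54.5% of genes changed 8-fold were called. Power for genes with few UMIs at 4C was not measured. The genes and lists were chosen with earlier results of these data known. All 8 genes are named whatever their call, with listed early-response genes that were called, listed relatives that were tested, listed KLF2 targets and the 3 genes most like each called gene. Of these last 2 kinds, 1 gene each is not reported here.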

Additional observations from a re-analysis of the deposited data

Results flagged for a closer look

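Barcodes under 100 UMIs, which the comparisons by annotated cells leave out, held more of 7 of the 8 genes at 37C without inhibitor than at 4C without inhibitor, where 46.2% of 6735 genes with at least 10 UMIs in them did. Scaled to the UMIs of such barcodes, Egr1 had 245 CPM at 37C and 45 CPM at 4C (ratio 5.45, exact counting interval 2.32 to 15.6). Egr2 had 62.5 CPM at 37C, from 12 UMIs, and 0 at 4C, while at 37C with inhibitor it had 68.6 CPM, from 17 UMIs. Klf2 had 568 CPM at 37C and 375 CPM at 4C (1.52, 1.08 to 2.16), and Klf4 had 115 CPM at 37C and 15 CPM at 4C (7.65, 1.88 to 67.1). Klf6 had 334 CPM at 37C and 179.8 CPM at 4C (1.85, 1.14 to 3.1). Ier3 had 547 CPM at 37C and 239.8 CPM at 4C (2.28, 1.52 to 3.51), and Ier5 had 521 CPM at 37C and 165 CPM at 4C (3.16, 1.98 to 5.27). Ier2 had 83.4 CPM at 37C and 112 CPM at 4C (0.742, 0.344 to 1.61). With inhibitor, Klf2 in these barcodes had 165 CPM at 37C and 669 CPM at 4C, and Klf6 had 182 CPM at 37C and 317 CPM at 4C. Ier2 with inhibitor had 117 CPM at 37C and 123 CPM at 4C, and the other 5 genes were higher at 37C. Intervals cover counting error only, and groups were pooled over aliquots with no test.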

How the results depend on the processing

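Counts of the 8 genes called moved with the setting in several comparisons, and the cause was not tested unless a construction is named. For inhibitor against none at 37C (2 called), DESeq2 gave 1, equal weights of the 4 cell types 0, immune cells alone 1 of 3 tested and all listed barcodes 6 (2.59% of genes called lower), and leaving out 1 library gave 2 to 4, with 4 without either 4C library without inhibitor. For 37C against 4C without inhibitor (1 called), DESeq2, equal weights and immune cells alone each gave 0, no filter 5 (0.544% of genes called higher), all barcodes 6 (2.73%), and leaving out 1 library 0 to 2. It was 2 without either aliquot at 37C with inhibitor or without aliquot A at 4C without inhibitor. All barcodes also gave 4 higher for 37C against 4C averaged over the inhibitor (9.14% of genes), against 0. Immune cells alone gave 1 lower there, Klf2, where 6.68% of genes were called lower. For 37C against 4C with inhibitor all barcodes gave 1 lower (5.76%), and for the interaction 3 lower (1.02%), each against 0. In tumour cells, DESeq2 gave 1 for the inhibitor at 37C (3 called) and 1 for 37C against 4C (2 called). Thinned libraries gave 0 in both, with 1 gene tested, and leaving out 1 library gave 1 to 3 and 0 to 2. T cells gave 0 in every setting run, with 0 to 7 genes tested. Summed libraries thinned to the smallest total left none of the genes tested over all cells.

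Klf2 for 37C against 4C without inhibitor turned to -0.97 in immune cells alone, and Ier2 to -0.20 with equal weights. Of 100 refits of single genes for the inhibitor at 37C, 87 kept direction and call, and 81 of 100 did for 37C against 4C. Deviations of same-lettered aliquots correlated at -0.169 to 0.396 over 6 pairs of groups, with 2 over the limit of 0.1. Libraries of the same letter were thus alike in some pairs of groups. Macrophage markers were higher in aliquot A than in aliquot B in all 4 groups. With the letter as a replicate block the counts were 2 and 1, as without it. Aliquots differed beyond counting noise (chi-square per degree of freedom 1.53 to 2.05). The 4C libraries, with at most 65149 UMIs, limit all comparisons with 4C.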
